A study of Mus musculus with 8 samples.

Results

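Polyamines are small, positively charged molecules (putrescine, spermidine and spermine) that bind nucleic acids and are needed for growth and translation. Ornithine decarboxylase, the product of Odc1, makes putrescine from ornithine and is the entry step of the pathway. Antizymes, encoded by Oaz1 and Oaz2, bind ornithine decarboxylase, carry it to the proteasome without ubiquitin and reduce polyamine uptake. The antizyme inhibitor encoded by Azin1 resembles ornithine decarboxylase without its catalytic activity, binds antizyme more tightly and so releases the enzyme. In kidney, ornithine decarboxylase is known mainly from the tubule, where male mice express it strongly under androgen. The genes described here were Azin1, Odc1, Oaz1, Oaz2, the synthesis genes Amd1, Srm and Sms, and the catabolic genes Sat1, Smox and Paox. They were taken by symbol from the gene table, which gave 10 of 55401 genes, and all 10 were among the 15150 genes that passed a filter on low values (an FPKM of at least 0.5 in at least 4 libraries). FPKM is a count of sequenced fragments divided by transcript length and library size, so levels of different genes can be set side by side per length.

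The samples were kidney tissue from 8 male mice, 1 poly(A) library each. The labels say only kidney, and the study's RNA method for reverse transcription PCR names the renal cortex, so the part of the kidney sequenced is not certain. The 4 mice labelled db/db model (numbered 2, 3, 4 and 5) are called vehicle here. Control mice received vehicle by the study's methods. The db/db mouse lacks a working leptin receptor and becomes obese and diabetic. The 4 mice labelled rFGF4 treatment (numbered 1, 2, 3 and 5) had received repeated intraperitoneal rFGF4, a recombinant fibroblast growth factor 4 changed so that it no longer drives cell division. The labels give the rFGF4 mice no genotype and the db/db mice no treatment, and the study's text places the sequenced kidneys in its streptozotocin-induced diabetic mice rather than in db/db mice, so the diabetes model is given here as labelled. No non-diabetic kidney was analysed here, and ages and weeks of treatment are not in the labels. The set was chosen by measured values of these same groups, since the FPKM of Azin1 gave it 1 of the smaller unadjusted p-values of the comparison. The differences of the 10 genes between groups are therefore a description, with no test.

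Both antizyme genes are read with a shift of the ribosome's reading frame at a stop codon, a step that polyamines favour. The windows around that site are shown because the shift takes place there. Capitals mark the UCC codon, the UGA stop and the base after it, in DNA letters, 5′ to 3′, from GENCODE M21 transcripts on the mouse GRCm38 build.
Oaz1: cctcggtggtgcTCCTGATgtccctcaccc
Oaz2: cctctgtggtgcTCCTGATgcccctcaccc
The windows are 30 bases long and differ at 2 positions, both outside the capitals. The site was found in 2 of 7 annotated Oaz1 transcripts and in 3 of 7 Oaz2 transcripts. A further 3 Oaz1 and 2 Oaz2 transcripts are annotated without the T of the stop codon. RNA abundance does not show how much of either RNA is read past the stop.

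Azin1 was the member that stood apart. Its gene lies at chr15:38487427-38519266 on the minus strand. Its FPKM was 13.1, 15.0, 17.7 and 11.6 in rFGF4 mice 1, 2, 3 and 5, and 7.84, 8.61, 7.13 and 6.90 in vehicle mice 2, 3, 4 and 5. Every rFGF4 kidney was above every vehicle kidney, with a gap between 8.61 and 11.6. The means were 14.3 ± 2.64 (SD, n = 4) with rFGF4 and 7.62 ± 0.774 (SD, n = 4) with vehicle, a ratio of 1.88. On the log2(FPKM + 1) scale the difference was 0.82 with a standard error of 0.15. The study's threshold asks for a fold change of 1.5 or more in either direction with p, before adjustment, below 0.05. Azin1 was past it, as were 1.52% of all tested genes (1.09% higher and 0.436% lower with rFGF4), and nothing is read from that count because the same comparison singled Azin1 out. No gene passed an adjusted p of 0.05 in limma with Benjamini-Hochberg adjustment, where the smallest adjusted p was 0.918 and 700 genes had an unadjusted p under 0.05.

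The gap at Azin1 was present on each scale examined. The median tested gene was 0.09 higher with rFGF4 on the log2 scale, and dividing each library by its median ratio brought that median to -0.01. Azin1 then ranged from 10.1 to 18.5 with rFGF4 and from 6.23 to 9.04 with vehicle, with a log2 difference of 0.70. When each library was rescaled to the same total (TPM), the ranges were 21.9 to 38.3 and 13.2 to 15.9. Leaving out rFGF4 mouse 1 and vehicle mouse 5 together, whose kidneys held the most macrophage marker RNA, gave a log2 difference of 0.81 with a standard error of 0.17. An antisense gene, Gm49077, covers 358 bases of Azin1 exons on the opposite strand, none of them coding. Its FPKM never passed 0.213 and stood at the table's floor of 0.0001 in 4 libraries, and the sources used here do not say whether reads were counted by strand.

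**Figure D1:**
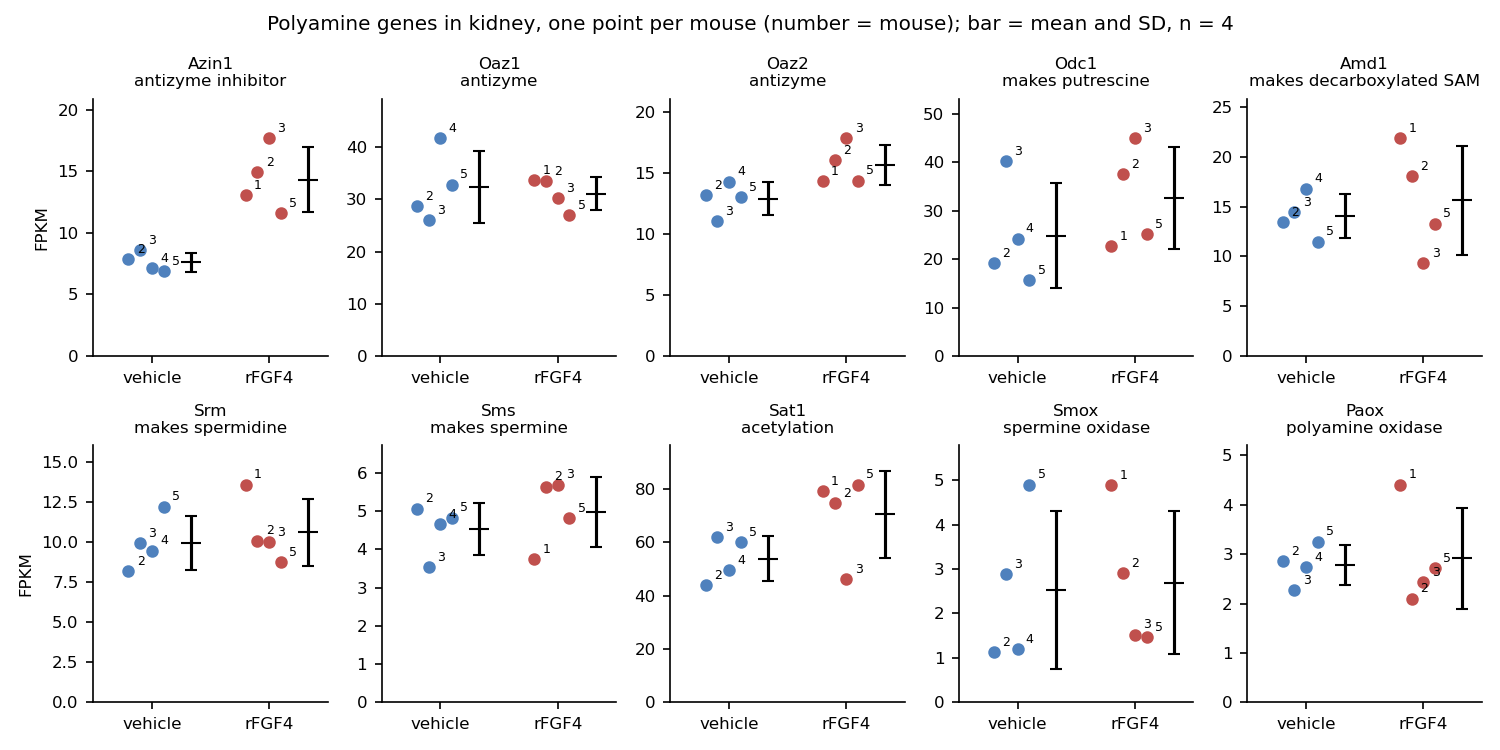
FPKM (linear axes from 0) of the 10 polyamine genes in each kidney, with blue points for vehicle, red points for rFGF4, the mouse number beside each point, and black bars for the mean and SD (n = 4). The Azin1 points of the groups do not overlap, while 8 of the other panels overlap and Oaz2 is separated by a narrow margin.

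Odc1, the target that Azin1 frees from antizyme, varied more between mice than between groups. It lies at chr12:17544794-17551505 on the plus strand. Its FPKM was 22.7, 37.6, 45.0 and 25.2 in rFGF4 mice 1, 2, 3 and 5, and 19.1, 40.2, 24.3 and 15.7 in vehicle mice 2, 3, 4 and 5. The groups overlapped, and vehicle mouse 3 exceeded 3 of the rFGF4 mice. The means were 32.6 ± 10.5 and 24.8 ± 10.8 (SD, n = 4 each), a log2 difference of 0.41 with a standard error of 0.32. Single mice moved that difference in both directions. It was 0.67 without vehicle mouse 3, when Odc1 passed the study's threshold, but 0.23 without vehicle mouse 5 and 0.24 without rFGF4 mouse 3. Of its possible stretches of 75 bases, 30.5% occur in other annotated genes, mainly pseudogenes, so part of its reads could have been assigned elsewhere.

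Neither antizyme gene passed the study's threshold, and no test compared them with each other. Oaz1 (chr10:80826656-80829290, plus strand), the more abundant of the pair, had an FPKM of 33.7, 33.5, 30.3 and 27.0 with rFGF4 and of 28.7, 26.1, 41.8 and 32.8 with vehicle. The groups overlapped fully, with both the highest and the lowest value in vehicle mice, and the log2 difference was -0.04 with a standard error of 0.16. Oaz2 (chr9:65668001-65690300, plus strand) had an FPKM of 14.3, 16.0, 17.8 and 14.4 with rFGF4 and of 13.2, 11.0, 14.3 and 13.0 with vehicle. The lowest rFGF4 value was above the highest vehicle value by less than 0.1 FPKM, and the ranges overlapped after median ratio scaling. The log2 difference of Oaz2 was 0.26 with a standard error of 0.12, a ratio of means of 1.22, which is below the study's fold threshold. Among all tested genes, 3.33% had groups that did not overlap (2.66% with rFGF4 the higher group), and 2 of the 10 polyamine genes were among them, both higher. Oaz1 shares 38.0% of its 75-base stretches with other genes, chiefly the processed copy Oaz1-ps, whose FPKM ranged from 1.60 in vehicle mouse 3 to 11.4 in vehicle mouse 4. Oaz2 shares 4.71%, and Oaz2-ps ranged from 0.915 to 2.15.

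Because the inhibitor binds antizyme in competition with ornithine decarboxylase, the ratio of inhibitor to antizyme RNA was taken within each library, where the library scale cancels. Azin1 over Oaz1 plus Oaz2 was 0.272, 0.302, 0.368 and 0.280 in rFGF4 mice 1, 2, 3 and 5, and 0.187, 0.232, 0.127 and 0.151 in vehicle mice 2, 3, 4 and 5. The groups did not overlap, and the means were 0.306 ± 0.0436 and 0.174 ± 0.0458 (SD, n = 4 each). In every kidney the antizyme RNAs together exceeded Azin1 RNA. Azin1 over Azin2, the gene of the second antizyme inhibitor, ranged from 5.20 to 10.5 with rFGF4 and from 2.70 to 4.61 with vehicle. Azin1 over Odc1 overlapped, at 0.393 to 0.576 against 0.214 to 0.440. The ratio of Odc1 to both antizymes overlapped as well, at 0.472 to 0.936 against 0.343 to 1.08, with the highest value in vehicle mouse 3. The ratios with Azin1 on top contain the gene that was chosen for its difference, so their separation is no further evidence. All of them compare RNA, not protein.

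**Figure D2:**
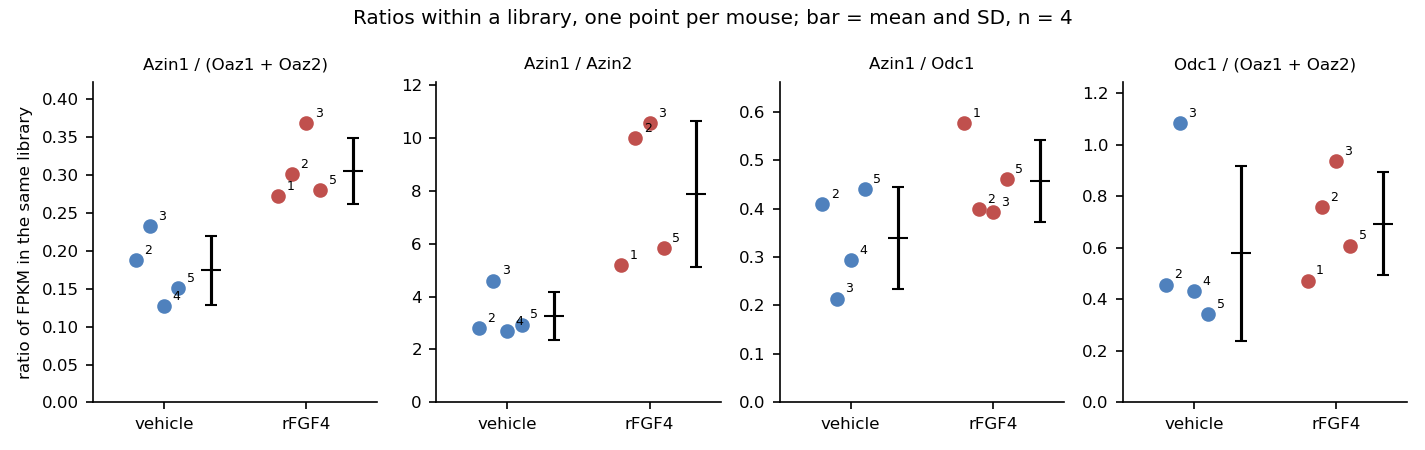
Ratios of FPKM within the same library (linear axes from 0), with blue points for vehicle, red points for rFGF4, the mouse number beside each, and bars for the mean and SD (n = 4). The groups do not overlap for Azin1 over the antizymes or over Azin2, and overlap for Azin1 over Odc1 and for Odc1 over the antizymes.

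The genes that carry putrescine on to spermidine and spermine were close between groups. Amd1 encodes S-adenosylmethionine decarboxylase, which supplies the aminopropyl donor for both later steps (chr10:40287458-40302186, minus strand). Its FPKM was 21.9, 18.0, 9.35 and 13.3 with rFGF4 and 13.4, 14.5, 16.8 and 11.5 with vehicle. The rFGF4 mice held both the highest and the lowest value, and the log2 difference was 0.09 with a standard error of 0.25. Amd1 is close to identical to Amd2 over most of its length, sharing 80.4% of its 75-base stretches with other genes. Amd2 was read at 1.03, 3.32, 1.05 and 3.66 FPKM with rFGF4 and at 1.23, 0.923, 1.22 and 1.63 with vehicle, and the split of reads between the pair is uncertain. Their sum ranged from 10.4 to 22.9 with rFGF4 and from 13.1 to 18.0 with vehicle, again with vehicle inside the rFGF4 range. The processed copy Amd-ps3 was read at 2.10 to 4.37 FPKM.

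Srm, the gene of spermidine synthase (chr4:148591503-148594993, plus strand), had an FPKM of 13.6, 10.1, 9.99 and 8.74 with rFGF4 and of 8.18, 9.91, 9.46 and 12.2 with vehicle. Rather than a group, rFGF4 mouse 1 and vehicle mouse 5 stood above the rest, and the log2 difference was 0.08 with a standard error of 0.16. Sms, the gene of spermine synthase (chrX:157443855-157492287, minus strand), had an FPKM of 3.74, 5.64, 5.69 and 4.82 with rFGF4 and of 5.07, 3.53, 4.67 and 4.83 with vehicle. Here the groups overlapped over most of their range, and the log2 difference was 0.11 with a standard error of 0.16. Srm over Sms had a mean of 2.24 in each group. No 75-base stretch of Srm occurs in another gene, while 27.6% of those of Sms do, chiefly in Sms-ps, which was read at 3.37 to 8.96 FPKM, a range that covers that of Sms.

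Of the catabolic genes, Sat1 was the most abundant of all 10 members. It encodes spermidine/spermine acetyltransferase, the rate-limiting enzyme of polyamine breakdown and export (chrX:155213132-155216449, minus strand). Its FPKM was 79.3, 74.7, 46.4 and 81.7 in rFGF4 mice 1, 2, 3 and 5 and 44.1, 61.9, 49.7 and 60.1 in vehicle mice 2, 3, 4 and 5. The rFGF4 mice other than mouse 3 were above all vehicle mice, and mouse 3 was below all but 1 of them. The means were 70.5 ± 16.4 and 53.9 ± 8.49 (SD, n = 4 each), a log2 difference of 0.36 with a standard error of 0.21. That mouse also had the highest Azin1 and the highest Odc1 of the 8. Sat1 over Odc1 had means of 2.44 and 2.43.

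Smox encodes spermine oxidase, which turns spermine directly into spermidine and releases hydrogen peroxide (chr2:131491496-131525922, plus strand). Its FPKM was 4.89, 2.91, 1.52 and 1.46 with rFGF4 and 1.13, 2.89, 1.20 and 4.90 with vehicle. The highest values were in rFGF4 mouse 1 and vehicle mouse 5 and differed from each other by less than 0.1, and the log2 difference between groups was 0.10 with a standard error of 0.40. Paox encodes the peroxisomal oxidase of acetylated polyamines (chr7:140115799-140137224, plus strand). Its FPKM was 4.41, 2.10, 2.44 and 2.72 with rFGF4 and 2.85, 2.27, 2.74 and 3.25 with vehicle. Apart from rFGF4 mouse 1 the groups lay in the same range, and the log2 difference was 0.02 with a standard error of 0.19. Paox exons overlap those of Echs1 on the opposite strand over 142 bases, and Echs1, a mitochondrial fatty acid oxidation gene, was read at 15.5 to 26.1 FPKM. The lone high Paox value was in the kidney with the lowest Echs1.

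Over all 10 genes, 9 log2 differences were above 0 and 1 below, with a median of 0.11 against 0.09 for all tested genes, of which 67.1% were above 0. Azin1 alone passed the study's threshold. Its log2 difference stayed between 0.70 and 1.07 over 14 other settings. Odc1, Oaz2 and Sat1 were also above 0 in all 14 of these, with lowest values of 0.23, 0.14 and 0.23. Sms was above 0 as well, but only by 0.0069 after median ratio scaling, whereas Amd1, Srm, Paox and Smox fell on both sides of 0 and Oaz1 was above 0 in 4. Rescaling to TPM moved the median of all tested genes to 0.29 and raised the difference of each of the 10 genes, since it divides by the summed FPKM, which ran from 389407 to 529835 with rFGF4 and from 481321 to 552604 with vehicle.

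**Figure D3:**
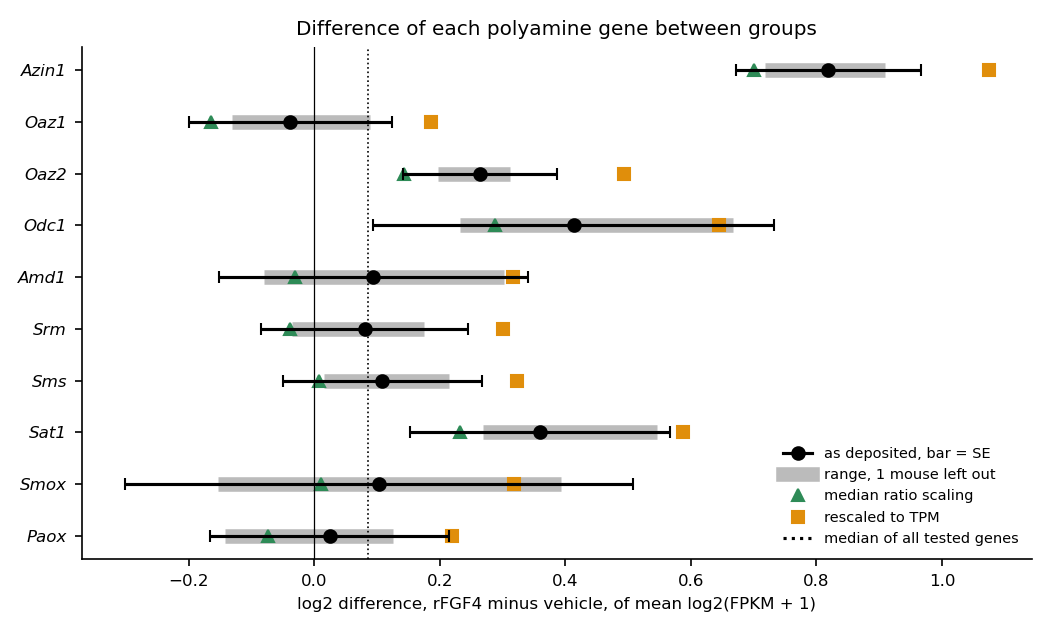
Log2 difference (rFGF4 minus vehicle, log2(FPKM + 1), horizontal axis) of each polyamine gene, with black points and bars for the value and its SE, grey bands for the range when 1 mouse is left out, triangles for median ratio scaling, squares for rescaling to TPM, and a dotted line at the median of all tested genes, 0.09. Azin1 lies at 0.82, the highest of the 10, and Odc1 and Smox have the widest error bars.

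The levels of the 10 genes, compared per length as FPKM, formed an order with 4 steps that held in every kidney as the values were deposited. By the mean of all 8 kidneys the order was Sat1 (62.2), Oaz1 (31.7), Odc1 (28.7), Amd1 (14.8), Oaz2 (14.3), Azin1 (11.0), Srm (10.3), Sms (4.75), Paox (2.85) and Smox (2.61). Sat1 exceeded Oaz1, Odc1 exceeded Amd1, Oaz2 exceeded Azin1 and Srm exceeded Sms in all 8 kidneys. The step from Odc1 to Amd1 rests on the uncertain split from Amd2, since Amd1 and Amd2 together reached 22.9 in rFGF4 mouse 1, where Odc1 was 22.7. The steps from Srm to Sms and from Sat1 to Oaz1 likewise depend on how reads were split from pseudogenes. In vehicle mouse 4, Sms was 4.67 and Sms-ps 8.96 against 9.46 for Srm. In the same mouse, Oaz1 was 41.8 and Oaz1-ps 11.4 against 49.7 for Sat1. Oaz2 was only just above Azin1 in rFGF4 mouse 3, at 17.8 against 17.7. Sms exceeded Paox in 7. Oaz1 was above Odc1 in 5 kidneys, Amd1 above Oaz2 in 5 and Paox above Smox in 4, so these neighbours could not be ordered. Azin1 was above Srm in 3 of 4 rFGF4 kidneys and in 0 of 4 vehicle kidneys. Sat1 stood at the 95.6th percentile of tested genes and Smox at the 34.8th. Within groups the coefficient of variation was highest for Smox (59.6% with rFGF4 and 70.2% with vehicle). That of Odc1 was 32.3% and 43.6%. Azin1 varied less, at 18.4% and 10.1%, and its 36.6% over all 8 kidneys contains the difference between groups.

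To ask which members varied with Azin1 apart from the group difference, each group's mean was removed and the remaining variation correlated over 8 kidneys. Odc1 came closest, with a Pearson's r of 0.79 (two-sided exact permutation within groups, p = 0.0226, adjusted p = 0.203 over 9 genes) and a Spearman's rho of 0.88 (exact p = 0.0208, adjusted p = 0.188). It therefore failed the correction for 9 genes. Without rFGF4 mice 3 and 5, the kidneys farthest from the median of Azin1 once group means were removed, r was 0.85 over 6 kidneys, and after median ratio scaling it was 0.89 over 8. Sat1 had the most negative r, -0.65 (exact permutation, adjusted p = 0.758), and it was 0.03 without the same mice, so that relation rested on them. Every other member had an exact adjusted p of at least 0.703 by either measure, as deposited. Median ratio scaling moved the r of other members too. That of Oaz2 went from 0.33 to 0.73, that of Sms from 0.21 to 0.64 and that of Smox from -0.15 to -0.58.

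Across all 8 kidneys, group difference included, the genes whose log2(FPKM + 1) followed that of Azin1 most closely among 13198 genes with a mean FPKM of at least 1 were Rapgef3 (r = 0.976), Dync1li1 (0.972), Ulk1 (0.968), Camk2n2 (0.963) and Fkbp5 (0.962). They encode, in that order, a cAMP-activated exchange factor, a dynein subunit, the kinase that starts autophagy, an inhibitor of calcium/calmodulin-dependent kinase II and a co-chaperone of the glucocorticoid receptor. Fkbp5 ranged from 18.8 to 47.7 FPKM with rFGF4, and from 12.7 to 17.1 with vehicle. After median ratio scaling the r of Ulk1 was 0.88 and the others were between 0.95 and 0.98. In all, 39 genes had an r of at least 0.9. Among members the nearest was Oaz2, at rank 345, then Odc1 at rank 791. Oaz1 was at rank 10175. All of these correlations share the libraries and the group difference that singled out Azin1, and carry no test.

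Every library held RNA of the kidney marker lists. None of the proximal tubule, podocyte or collecting duct lists had a gene at 0 in all 8 libraries. Libraries differed in immune cell RNA, and 1 member followed that closely. Markers of macrophages (Adgre1, Cd68, C1qa, C1qb, C1qc and Csf1r) summed to 38.9 to 498 FPKM with rFGF4 and 29.0 to 534 with vehicle. None of them was at 0 in all 8 kidneys, and the highest sums were in rFGF4 mouse 1 and vehicle mouse 5. The order of the 8 kidneys by Smox was the same as their order by this sum. On the log2 scale r was 0.98 (two-sided exact permutation, adjusted p = 0.00273) and rho was 1 (exact p = 4.96e-05, the smallest possible, adjusted p = 0.00546), adjusted over 110 relations between 10 genes and 11 marker lists that were computed after the values had been seen. Without those 2 mice, the farthest from the median, r was 0.95 over 6 kidneys, and with group means removed it was 0.99 over 8. Bulk tissue RNA cannot tell more macrophages from more RNA per cell, and which cells held the Smox RNA was not tested. Smox also followed the lymphoid list by Pearson's r, at 0.90 (exact permutation, adjusted p = 0.0336), but not by rho, at 0.93 (exact adjusted p = 0.0818). Its r with the proximal tubule list was -0.81 (exact adjusted p = 0.0477) with a rho of -0.79 (exact adjusted p = 0.253). With androgen-responsive male kidney genes the r of Smox was -0.89 (exact adjusted p = 0.0557) and its rho -0.90 (exact adjusted p = 0.125). With the podocyte list its r was 0.79 (exact adjusted p = 0.194). The lymphoid sum reached 23372 FPKM in vehicle mouse 5 against 26.6 to 2753 elsewhere, and the proximal tubule sum was lowest, at 247, in rFGF4 mouse 1.

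Srm followed the macrophage sum less firmly. Its r was 0.91 (exact permutation, adjusted p = 0.0336), its rho was 0.93 (exact adjusted p = 0.0818), and r was 0.76 over 6 kidneys without the extreme 2 and 0.54 after median ratio scaling. The r of Srm was -0.86 with the androgen-responsive list (exact adjusted p = 0.0941) and -0.83 with the proximal tubule list (exact adjusted p = 0.123). Azin1 had an r of 0.14 and a rho of 0.10 with the macrophage sum. Its largest relations with other lists were with the thick ascending limb (r = 0.66, exact permutation, adjusted p = 0.378, and rho = 0.86, exact adjusted p = 0.196), endothelium (r = -0.64), immediate early genes (r = 0.59) and red blood cells (r = -0.56), and none of the 11 passed the correction. The summed level of every marker list overlapped between groups. Gene by gene, against 67.1% of all tested genes above 0, 3 lists were higher with rFGF4 throughout, namely immediate early genes (7 of 7, summed FPKM 26.0 to 151 against 22.1 to 104), macrophages (6 of 6) and podocytes (5 of 5, 64.6 to 90.5 against 46.0 to 84.8). The red blood cell list was lower throughout (5 of 5, 120 to 2657 against 1139 to 4325), as were the collecting duct (4 of 4, 159 to 308 against 205 to 314), endothelium (4 of 4, 18.0 to 27.2 against 22.4 to 34.5) and distal convoluted tubule (3 of 3, 29.8 to 184 against 95.3 to 241). The other lists were mixed, with 1 gene higher and 5 lower for the proximal tubule, 1 and 4 for lymphoid cells, 1 and 1 for the thick ascending limb and 4 and 3 for androgen-responsive genes. The part of any of these in the Azin1 difference was not tested. Androgen-responsive kidney genes, the setting in which renal Odc1 is best known, summed to 1129 to 5684 FPKM with rFGF4 and 2975 to 7199 with vehicle. Odc1 did not follow that sum here (r = 0.02, exact permutation, adjusted p = 0.986, and rho = 0.02, exact adjusted p = 0.977). Its largest relations were with endothelium (r = -0.84, exact adjusted p = 0.123) and the thick ascending limb (r = 0.73, exact adjusted p = 0.290). None of the relations of Odc1 passed the correction. Over the 11 lists, 1 podocyte gene of 5 and 1 androgen-responsive gene of 7 passed the study's threshold, as did 1.52% of all tested genes.

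**Figure D4:**
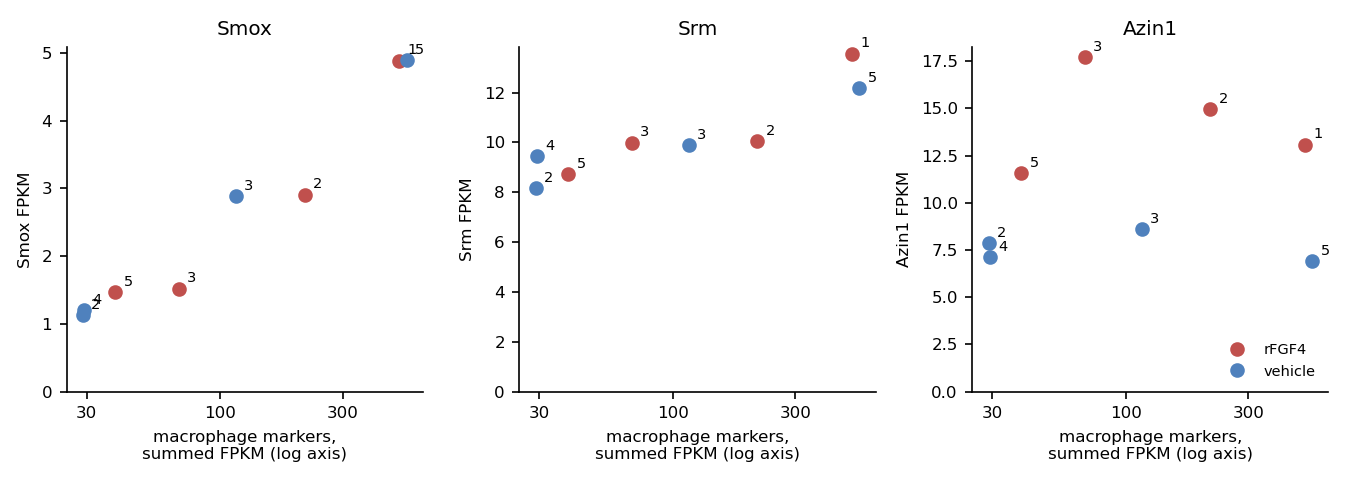
FPKM of Smox, Srm and Azin1 (linear vertical axes from 0) against the summed FPKM of 6 macrophage markers (log axis) in each of the 8 kidneys, red for rFGF4 and blue for vehicle, with the mouse number beside each point. Smox climbs with the marker sum in both groups, Srm is highest in the same 2 kidneys, and the Azin1 points of the groups do not overlap.

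The wider pathway, 49 genes listed by role, held no gene past the study's threshold among the 45 tested, where 1.52% of all genes passed. Of the 45, 27 were above 0 and 18 below, with a median log2 difference of 0.06. By role, the medians were -0.09 for 10 genes of ornithine and arginine supply, 0.03 for 8 of the methionine cycle, 0.15 for 4 of the hypusine pathway, 0.17 for 10 of transport, -0.14 for 5 of oxidation and aldehyde removal and 0.00 for 6 regulators. The antizyme family list had 2 of 4 genes tested, Amd2 and Sat2, and Oaz3, the testis antizyme, was too low to test, as were Satl1, Mat1a and Slc12a8.

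Nfe2l2, the gene of the oxidative stress regulator Nrf2, was the only wider pathway gene with an unadjusted p under 0.05, which 4.62% of all genes had. Its FPKM was 46.8, 46.6, 38.0 and 27.1 with rFGF4 and 22.0, 29.0, 26.9 and 32.0 with vehicle. The groups overlapped through rFGF4 mouse 5, and the log2 difference was 0.49 with a standard error of 0.20 (limma, p = 0.0373, adjusted p = 0.918, exact permutation p = 0.0857). Dohh, which completes the spermidine-derived hypusine on the translation factor eIF5A, was the only one whose groups did not overlap. It had an FPKM of 10.2, 10.2, 9.96 and 10.3 with rFGF4 and of 8.96, 8.93, 8.62 and 9.28 with vehicle, a difference of 0.17 with a standard error of 0.09 (limma, p = 0.101, adjusted p = 0.918, exact permutation p = 0.0286, the smallest that 4 against 4 allows). With groups that did not overlap in 3.33% of all genes, 1 of 45 is no more than the background.

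Genes set beside Azin1 for their place in the pathway did not pass the test either. Azin2 had an FPKM of 2.51, 1.498, 1.68 and 1.99 with rFGF4 and of 2.78, 1.87, 2.64 and 2.34 with vehicle, a difference opposite in sign to that of Azin1, -0.23 with a standard error of 0.15 (limma, adjusted p = 0.918). Myc, a transcription factor that drives Odc1, had an FPKM of 16.1, 9.09, 4.82 and 2.72 with rFGF4 and of 2.98, 3.76, 3.41 and 7.98 with vehicle, with a difference of 0.58 and a standard error of 0.47 (limma, adjusted p = 0.920). Its highest values were in rFGF4 mice 1 and 2 and vehicle mouse 5, and those of Odc1 in rFGF4 mice 3 and 2 and vehicle mouse 3. Eif5a differed by 0.18 with a standard error of 0.13 (limma, adjusted p = 0.920).

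**Figure D5:**
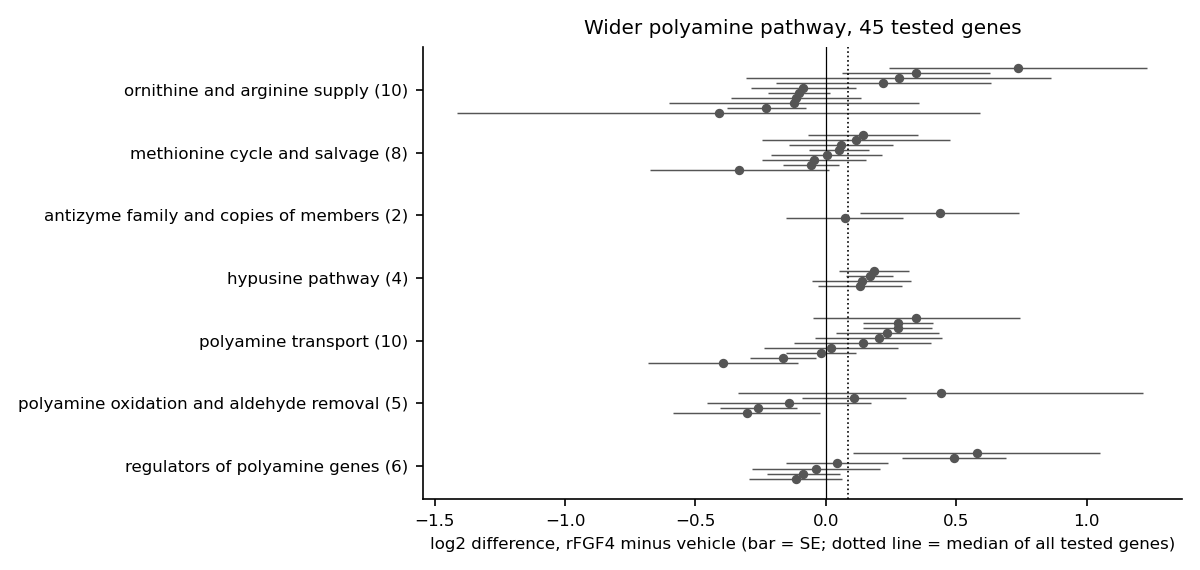
Log2 difference (rFGF4 minus vehicle, horizontal axis, bars for the SE) of the 45 tested genes of the wider polyamine pathway, 1 row for each of 7 roles with the number tested in brackets, and a dotted line at the median of all tested genes. The 4 hypusine genes and the 2 genes of the antizyme family list all lie above 0, the other roles have points on both sides, and none passed the study's threshold.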

How the data were processed

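Poly(A) RNA from 8 mouse kidneys was sequenced in paired ends (the labels and the study's methods name different Illumina sequencers). The authors deposited FPKM per gene, in which 0 is replaced by 0.0001. The study's methods name StringTie for assembly, and the submitters' processing notes list HISAT2 2.0, Bowtie 0.12.2, StringTie 1.3.0 and the build mm8, with no role given. Of the 55401 gene IDs, 55141 are in GENCODE M21 (GRCm38), which gave the coordinates, overlaps and shared 75-base stretches. The authors' own fold change, p, q and regulation columns were not used.

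The study used a test on read counts. The table holds FPKM, so limma 3.58.1 with a trend (R 4.3.3) was fitted to log2(FPKM + 1) in 8 libraries, over genes that reached an FPKM of 0.5 in 4 or more libraries, with Benjamini-Hochberg adjustment over all 15150 and the study's threshold (unadjusted p under 0.05, fold change from 1.5 up or from 0.67 down). A log2 difference on this scale understates the change of low genes. The fit was tested on simulated data. Nothing in the labels says that the mice were handled in separate batches, and p-values measure the spread between these mice. Total depth is unknown. Relative depth, from the steps between low values, was 0.908 to 1.13 of that of vehicle mouse 2. Mitochondrial genes took 19.0 to 36.0% of summed FPKM with rFGF4 and 24.4 to 38.4% with vehicle.

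The 10 genes and all lists were chosen with earlier results of these data known. Named genes were the members, genes overlapping or copying them, wider pathway genes past the threshold or with an unadjusted p under 0.05 or no overlap between groups (mean FPKM of at least 1), Myc, Eif5a, Amd2 and Azin2, and the 5 genes most like Azin1. Alternatives were a pseudocount of 0.1, no filter, median ratio scaling, rescaling to a common total (TPM), no trend, a block on mouse number, a fold change of at least 2, and leaving out each mouse. Correlations with marker lists, and leaving out rFGF4 mouse 1 and vehicle mouse 5 together, were added after seeing the data. One named gene of the wider pathway is not reported here.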

Additional observations from a re-analysis of the deposited data

Results flagged for a closer look

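Sat1 in rFGF4 mouse 3 stood away from the rest of its group. Its FPKM was 46.4, against 74.7 to 81.7 in the other rFGF4 mice, and its gap to the nearest of them was 0.841 of the group's whole range, above Dixon's limit of 0.83 for 4 samples. It was the single case in 32 groups of 4 values examined, and chance gives about 1 in 20.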

How the results depend on the processing

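The number of genes past the study's threshold, 231 (165 higher and 66 lower with rFGF4), was 348 with a pseudocount of 0.1, 686 with TPM (647 higher and 39 lower), 54 at a fold change of at least 2 and 187 to 575 when 1 mouse was left out, with 575 without rFGF4 mouse 5 and 432 without vehicle mouse 5. Median ratio scaling gave 174, split 93 higher and 81 lower. Without rFGF4 mouse 1 and vehicle mouse 5 together, it was 273. Of the 10 polyamine genes, 1 passed, or 2 with TPM (Azin1 and Sat1), 0 at a fold change of at least 2, and 1 to 2 when 1 mouse was left out, with 2 without vehicle mouse 3 (Azin1 and Odc1). Of the wider pathway, 0 passed, or 1 with TPM (Nfe2l2) and 0 to 2 when 1 mouse was left out, with 2 (Nfe2l2 among them) without rFGF4 mouse 5 and 1 (Gatm) without rFGF4 mouse 1. The log2 difference of Azin1, 0.82, was 1.07 with TPM and 0.72 to 0.91 when 1 mouse was left out. With TPM those of Oaz2 and Sms were 0.49 and 0.32. No member that passed changed direction. The cause of these changes was not tested. Mouse numbers 2, 3 and 5 occur in both groups, and libraries that share a number did not resemble each other. The correlation of their deviations was -0.23, -0.16 and -0.39, and 0 of 6 such libraries was most like its namesake. Whether the mice were handled in pairs cannot be told from this. With a replicate block on the number, 262 genes passed, with 1 of the 10 polyamine genes and 2 of the wider pathway (Ahcy and Gatm), and Azin1 was at 0.83. FPKM without counts sets no error for a single value, and low members such as Smox and Paox are the least precisely measured.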
